A study of Mytilus coruscus with 2 samples.

Results

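The peaks described here lie nearest to genes whose names place them in the cytoskeleton, its motors and the cilium. A peak was taken when the Swiss-Prot or KEGG text of its nearest gene held the whole word actin or 1 of the words myosin, dynein, kinesin, tubulin, spectrin, filamin, centrosomal, cilia, intraflagellar, titin and tropomyosin. This gave 114 of 3465 peaks (3.29%) at 73 of 2548 genes (2.86%). Spectrin, filamin and tropomyosin matched 0 peaks.

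The data came from ChIP-seq on the digestive gland of the thick shell mussel *M. coruscus*. In this method an antibody pulls down the DNA fragments bound by a protein, here the transcription factor Nrf2, and the input is the same kind of chromatin without that selection. There was 1 Nrf2 ChIP library and 1 input library, with the treatment given as not applicable in the labels and no genotype, age or number of animals stated for either. Without replicates no value has a replicate error and no p value is given, so the intervals below cover counting error only. Those of shares and medians treat peaks of the same gene as independent.

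The cytoskeleton is built from actin filaments, which carry myosin motors, and from microtubules made of tubulin, which carry dynein and kinesin motors. Cilia are microtubule bundles that grow from a centriole. Axonemal dyneins make them beat, and intraflagellar transport, driven by kinesin and dynein, builds them. In bivalves ciliated cells line the ducts of the digestive gland. Nrf2 is a leucine zipper factor that turns on antioxidant genes, and in mammalian cells its repressor Keap1 is bound to actin filaments. The peak table holds no expression values, so neither the tissue nor any ciliated cell type could be checked by markers.

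The names carry different weight. The word stood in both texts for 41 genes, in Swiss-Prot only for 8 genes and in KEGG only for 24 genes, and 11 genes had no Swiss-Prot name. InterPro, which lists protein domains, named a cytoskeletal family for 31 of the 73 genes. By names and domains together, 44 genes with 74 peaks had a cytoskeletal name that no other database contradicted, 20 genes with 31 peaks had a name that conflicted between databases or came from KEGG without a Swiss-Prot name, and 9 genes with 9 peaks were matched by the word only. In the first set, *CFAP20* and *CFAP46* were named by Swiss-Prot alone, with no KEGG name and no InterPro cytoskeletal family. The last set includes *SMARCAL1*, *SMARCA5* and *SMARCAD1*, chromatin remodelers whose long name holds "actin-dependent". A reverse transcriptase or integrase domain, typical of mobile elements, was found in 5 member genes. The share over all genes with a peak was not computed, so this count is not a trait of the members.

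Each peak has a pileup, which is the number of ChIP fragments stacked at its summit, and a fold enrichment, which is that pileup over the local background. The median fold enrichment was 4.48 in the 114 member peaks (95% interval of the median 4.22 to 4.84, range 2.12 to 10.6), and 4.63 in all 3465 peaks (range 1.61 to 36.8). The interval of the members holds the median of all peaks. A fold of 6 or more was reached by 19 member peaks (16.7%, Wilson 95% interval 10.9 to 24.6%), against 20.0% of all peaks. A fold of 4 or more was reached by 74 member peaks (64.9%), against 69.7% of all peaks. A single actin gene gave 17 of the 114 peaks. Without it, the median fold was 4.77 (95% interval 4.43 to 4.91). Then 18.6% of the member peaks reached a fold of 6 and 70.1% a fold of 4. Among the 100 highest folds of the table stood 1 member peak (1%), at rank 77, while members made up 3.29% of all peaks.

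The fragments behind these values were few. The median pileup was 16.5 in member peaks (9 to 88), and 16 in all peaks (8 to 1712). A pileup of 11 has an exact Poisson 95% interval of 5.49 to 19.7, and a pileup of 42 one of 30.3 to 56.8. The background was computed as the pileup plus 1 divided by the fold, so it holds any constant that the peak caller adds to it. It was at its lowest value of 2.48 in 36 member peaks (31.6%, 23.8 to 40.6%), against 24.5% of all peaks. At this value the fold depends on the pileup alone, so that every such peak with 11 fragments has a fold of 4.84, as 9 member peaks did. At the other end, 6 member peaks (5.26%), against 348 of all 3465 peaks (10.0%), had a background above 10.8. All 6 belonged to genes with an uncertain name, but 4 of them to the same gene (M.coruscus_chr3_0104). Of the 19 member peaks at 6-fold or more, 9 had the lowest background of 2.48. The matching share over all peaks was not computed, so this count is not a trait of the members. The plot of pileup and fold shows the peaks with the lowest background on a single line.

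**Figure D1:**
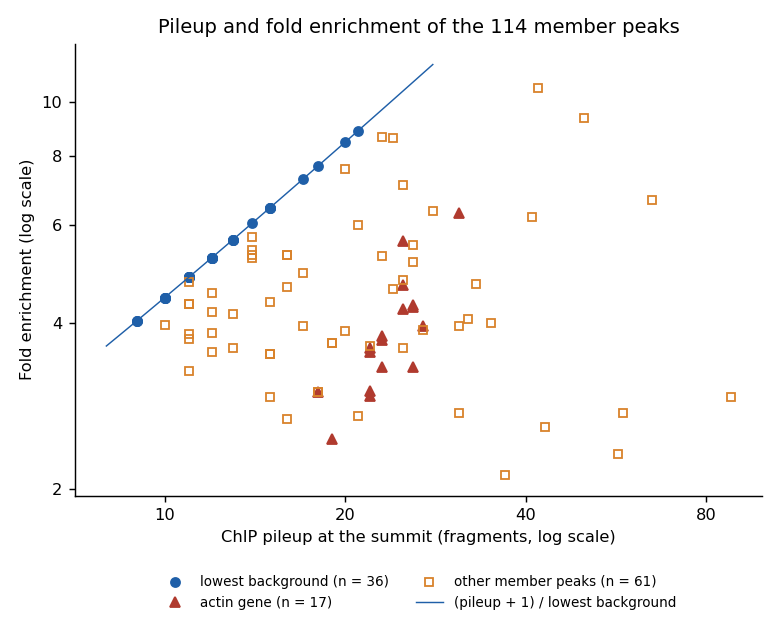
Fold enrichment against the pileup at the summit, both on log axes, for the 114 member peaks, 1 point per peak. The 36 peaks with the lowest background of 2.48 lie on the line, and the 17 peaks of the actin gene sit between 18 and 31 fragments, away from it.

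Most member peaks were in introns or between genes. Introns held 51 member peaks (44.7%, Wilson 95% interval 35.9 to 53.9%), against 44.9% of all peaks. The intergenic class held 47 member peaks (41.2%, 32.6 to 50.4%), against 40.5% of all peaks. Promoters up to 3 kb upstream of the transcription start site (TSS) held 6 member peaks (5.26%, 2.43 to 11%), against 7.24% of all peaks. Exons held 9 member peaks (7.89%, 4.21 to 14.3%), against 5.25% of all peaks, and 1 member peak was downstream of a gene. Each interval of the members holds the share of all peaks. The actin gene alone gave 17 of the 47 intergenic peaks. Without it, introns held 52.6% and the intergenic class 30.9% of 97 peaks, against 52.8% and 33% in the 2529 peaks of other genes with a Swiss-Prot or KEGG name. Beside these named peaks, the members with the actin gene had a lower intron share (44.7%) and a higher intergenic share (41.2%). Their intervals hold both shares of the named peaks. The 51 intron peaks of the members lay at a median of 20545 bp after the TSS, against 18842 bp for all 1556 intron peaks. Beyond 50000 bp lay 13 of the 51 (25.5%), against 16.7% of all intron peaks, and 7 of the 13 were in dynein heavy chain genes.

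**Figure D2:**
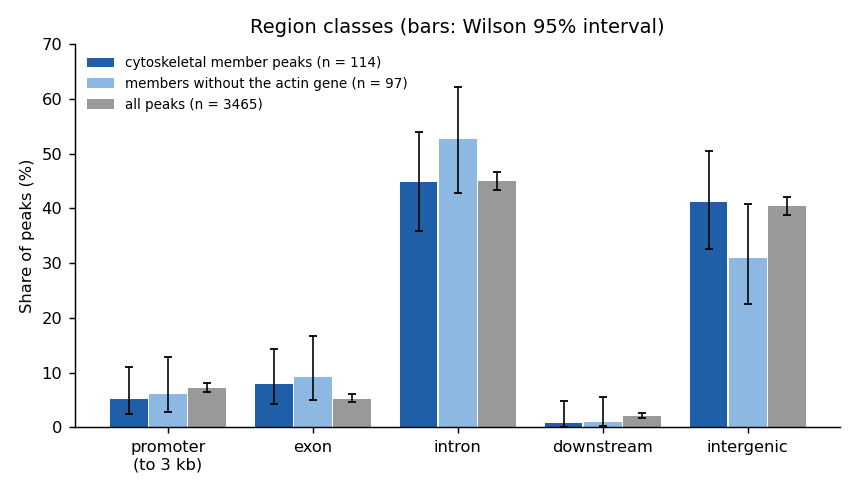
Share of peaks (%) in each region class for the 114 member peaks, the 97 member peaks without the actin gene and all 3465 peaks, with Wilson 95% intervals. The intergenic share is 41.2% in the members, 30.9% without the actin gene and 40.5% in all peaks.

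The 6 promoter peaks belonged to 5 genes, and 2 of these genes have names that their protein domains do not contradict. *CEP63*, a centriole duplication protein (M.coruscus_chr3_2292), had both a promoter(1k) peak 492 bp upstream of the TSS, with 13 fragments and a fold of 5.64, and a promoter(3k) peak 2183 bp upstream, with 11 fragments and a fold of 4.84. Its promoter(1k) peak was the only one of that class among the members. The share of that class over all peaks was not computed. *TTLL6*, an enzyme that adds glutamate chains to tubulin (M.coruscus_chr8_0108), had a peak 1639 bp upstream with 11 fragments and a fold of 4.84.

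The other 3 promoter genes are less certain. A gene named for paramyosin, a thick filament protein of invertebrate muscle (M.coruscus_chr4_0863), had a peak 1667 bp upstream with a fold of 4.53, but its domains are of a mitochondria-eating protein. The gene named for TUBGCP6, a subunit of the gamma-tubulin complex that starts microtubules (M.coruscus_chr5_0625), had a peak 1384 bp upstream with a fold of 3.60, and its only domain is like a reverse transcriptase. A gene like centromere protein F, placed by KEGG under myosin heavy chain (M.coruscus_chr3_3146), had a peak 1774 bp upstream with 25 fragments and a fold of 4.77. That peak was 1182 bp long, the longest among the members.

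The folds of the roles overlapped. The median fold was 3.76 in the 24 peaks of actin and its regulators (2.46 to 7.09), 4.68 in the 20 peaks of myosins (2.32 to 8.60) and 4.43 in the 7 peaks of titins (2.59 to 6.67). It was 4.84 in the 19 peaks of axonemal dyneins (3.63 to 10.6), 4.64 in the 12 peaks of kinesins (3.51 to 7.56) and 3.60 in the 5 peaks of tubulins and their enzymes (2.12 to 6.19). It was 4.60 in the 12 peaks of the centrosome (3.0 to 8.87), 4.73 in the 6 peaks of the cilium and intraflagellar transport (2.68 to 6.45) and 5.26 in the 9 peaks matched by word only (3.96 to 9.36). All of these ranges overlap. With uncontradicted names alone, the median was 5.04 in 6 myosin peaks, 5.07 in 2 titin peaks and 4.84 in 3 tubulin peaks. It was 3.79 in 19 peaks of actin and its regulators, 4.79 in 18 dynein peaks and 4.64 in 10 kinesin peaks. It was 4.84 in 11 peaks of the centrosome and 5.14 in 5 peaks of the cilium.

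**Figure D3:**
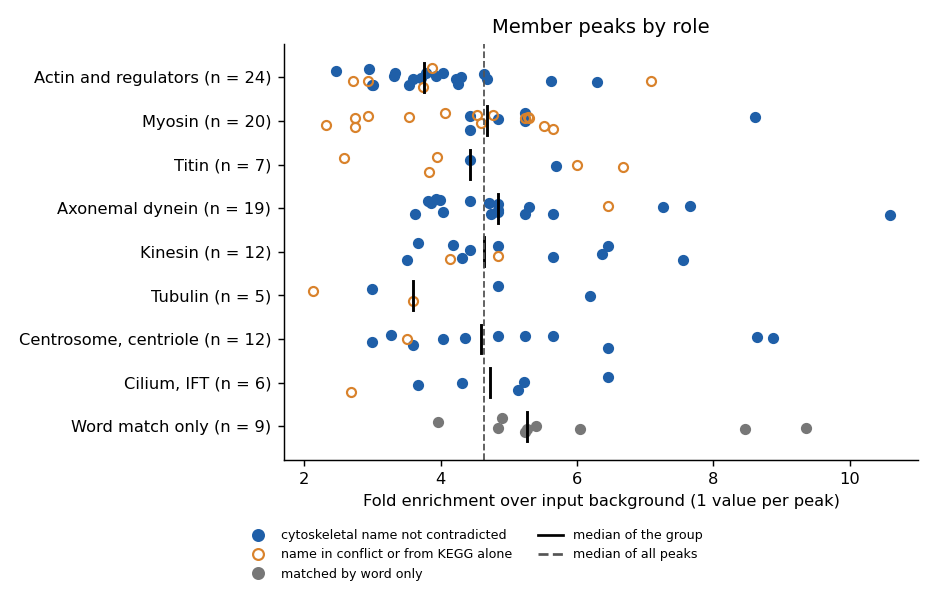
Fold enrichment of each member peak, grouped by the role of its nearest gene, with the median of each group (black) and of all peaks (dashed, 4.63). Group medians lie between 3.60 and 5.26, every group overlaps the others, and the highest value is the dynein heavy chain peak at 10.6.

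Actin, the subunit of the filaments themselves, was represented by a single gene (M.coruscus_chr6_0614), with matches to actin in Swiss-Prot, KEGG and InterPro. It was nearest to 17 peaks, more than any of the 2548 genes, and the next gene had 10. All 17 were intergenic and upstream, from 49068 to 5263 bp before the TSS, on chromosome 6 between 27179808 and 27223806 in the authors' genome. Of these peaks, 6 lay within 10000 bp and 13 within 25000 bp of the TSS, and the closest was still outside the promoter classes. The other 3 peaks found within 200000 bp were nearest to another gene (M.coruscus_chr6_0613).

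These peaks were numerous but not high. Their fold ran from 2.46 to 6.30 with a median of 3.71, and 14 of 17 were below the median of the whole table. The highest lay 35988 bp upstream, with 31 fragments and a fold of 6.30. The closest lay 5263 bp upstream, with 25 fragments and a fold of 5.62. The lowest lay 35252 bp upstream, with 19 fragments and a fold of 2.46, so that the highest and the lowest were neighbours. A fold of 4 or more was reached by 6 of the 17.

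Their pileups were even, at 18 to 31 fragments with a median of 23, above the median of 16 of all peaks. Their background was 4.6 to 8.1, above the median of 3.26 of all peaks at every 1 of the 17. The gaps between neighbouring summits had a median of 1306 bp, and 7 of 16 gaps were under 1000 bp. When peaks whose edges, not summits, lay within 1000 bp were merged, 9 clusters remained.

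**Figure D4:**
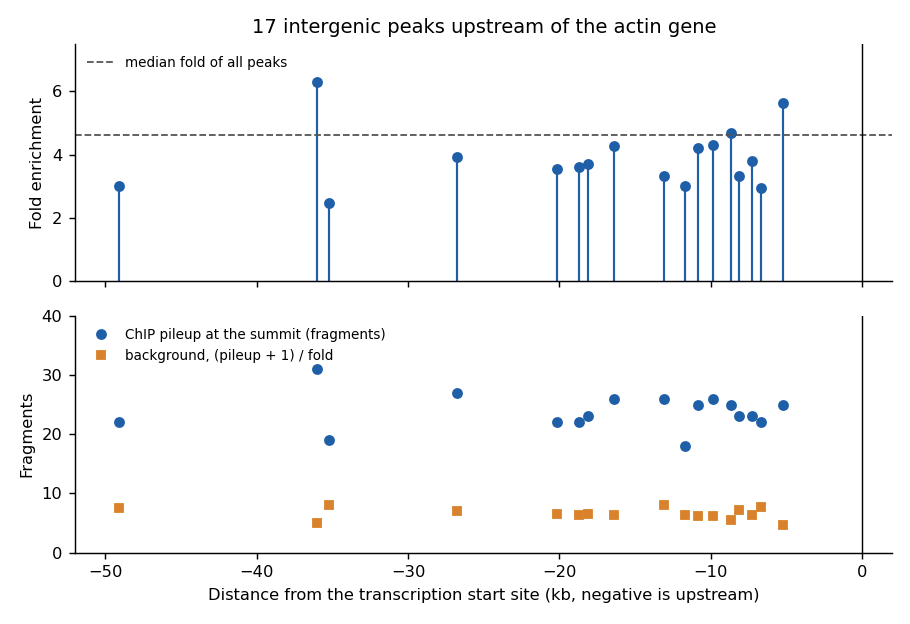
The 17 intergenic peaks nearest to the actin gene by distance from its TSS (kb, negative is upstream). The upper panel gives the fold enrichment with the median of all peaks (4.63, dashed), and the lower panel gives the pileup of 18 to 31 fragments (circles) above the background of 4.6 to 8.1 (squares).

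The actin regulators were 6 genes with 7 peaks and a median fold of 3.87. The gene matched to *TRIOBP*, which bundles actin filaments (M.coruscus_chr8_1284), had a peak 3502 bp upstream with 25 fragments and a fold of 7.09, and a second 5665 bp upstream with a fold of 2.94. Its match was weak (E value 8e-06), and KEGG named a translation initiation factor instead. *JMY*, which starts new actin filaments (M.coruscus_chr8_0089), had an intron peak 2068 bp from the TSS with a fold of 4.63. *ABLIM1*, an actin-binding LIM protein (M.coruscus_chr8_1573), had an intron peak at 18721 bp with 9 fragments and a fold of 4.03. *EHBP1*, *ANK2* and *BTBD17* had 1 peak each, at a fold of 3.87, 2.71 and 3.74, and their cytoskeletal word stood in KEGG only.

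Myosins and their partners were 13 genes with 20 peaks. The highest was at myosin-IIIb, an actin motor of sensory cells in vertebrates (M.coruscus_chr8_0095), 28326 bp upstream of the TSS, with 24 fragments and a fold of 8.60. Myosin-XV, which in mammals carries cargo to the tips of stereocilia (M.coruscus_chr10_0070), had a pair of peaks 12691 and 11428 bp upstream with a fold of 5.24 and 4.84. The regulatory light chain of myosin (M.coruscus_chr12_1534) had an intron peak at 2749 bp with a fold of 5.24. Myosin light chain kinase, which phosphorylates that chain (M.coruscus_chr1_0234), had both its peaks in exons, 441 and 1358 bp after the TSS, each with 10 fragments and a fold of 4.43. These 3 genes were named after their values were seen.

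The other leading myosin matches were named by KEGG. *CCDC17* (M.coruscus_chr1_0513), a coiled-coil protein in Swiss-Prot, had an intron peak with 13 fragments and a fold of 5.64. The pair of genes like centromere protein F had an intron peak with a fold of 5.51 (M.coruscus_chr3_3144) and, beside the promoter peak above, a peak 9553 bp upstream with a fold of 5.29 (M.coruscus_chr3_3146). The second paramyosin match (M.coruscus_chr4_0857) had an intron peak with a fold of 5.29. The last 3 genes had 1 peak each and, like that match, were named after their values were seen. They were matched to a *Dictyostelium* myosin-2 heavy chain (M.coruscus_chr14_1168, 4.59), to *PLEKHH2* in Swiss-Prot and a myosin in KEGG (M.coruscus_chr3_0372, 3.54) and to myosin-binding protein C in KEGG only (M.coruscus_chr2_2547, 5.24).

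A gene that KEGG named for myosin-binding protein C (M.coruscus_chr3_0104) had 5 intergenic peaks, 40865 to 62922 bp beyond its TSS. They had 31 to 88 fragments, the last being the highest pileup among the members, but a fold of only 2.32 to 4.07. Their background was 8.1 to 30.4. The gene had no Swiss-Prot name, its KEGG match was weak (E value 2e-06), and its domain is a Myb/SANT-like DNA-binding domain, so it is a myosin-binding protein by name only.

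The titins, giant springs of the muscle sarcomere in vertebrates, were 3 genes with 7 peaks. Most of these peaks (5) were at 1 gene (M.coruscus_chr11_0008), which is titin in Swiss-Prot and hemicentin, an extracellular matrix protein, in KEGG. Its exon peak 9485 bp after the TSS had 65 fragments and a fold of 6.67. Its 4 intron peaks, from 3984 to 20232 bp after the TSS, had a fold of 6.0, 2.59, 3.82 and 3.94 in that order of distance. The other titin genes had 1 peak each, at a fold of 5.70 (M.coruscus_chr14_1597, 20004 bp upstream) and 4.43 (M.coruscus_chr14_1607, intron).

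Axonemal dyneins are the motors that bend the cilium. The dynein group held 11 genes with 19 peaks, of which 9 were heavy chain genes with 15 peaks, and the others were *DRC7* and an uncertain match. *DNAH6*, an inner arm heavy chain (M.coruscus_chr11_2616), had the highest fold of all members. Its peak, on chromosome 11 from 103356169 to 103356911, lay in an intron 29480 bp after the TSS and had 42 fragments and a fold of 10.6. *DNAH5*, an outer arm heavy chain whose loss causes primary ciliary dyskinesia in humans (M.coruscus_chr5_2662), had 3 peaks. The intron peak at 64132 bp had 17 fragments and a fold of 7.26, the exon peak at 17188 bp had 35 fragments and a fold of 4.00, and the intron peak at 16105 bp had a fold of 3.63. More fragments did not mean a higher fold, since the background of the exon peak was 9.01 and that of the highest peak 2.48.

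The 9 heavy chain genes were alike in where their peaks lay. All 15 peaks were inside the gene, 12 in introns and 3 in exons (100%, Wilson 95% interval 79.6 to 100%). The share was 52.6% in member peaks, 61.9% in members without the actin gene, 58.7% in peaks of other named genes and 50.2% in all peaks. Of the 9 genes, 5 had 2 or more of the 15 peaks, so the peaks are not independent and the interval may be too narrow. The heavy chains were set apart within the dynein group and were not planned as a role group of their own. With *DRC7* and the uncertain match, which had 3 intergenic peaks between them, 16 of 19 peaks (84.2%) were inside the gene. Similar shares were found in titins (6 of 7, 85.7%) and in the cilium group (5 of 6, 83.3%). The share was 66.7% in the centrosome group and in word matches, and 58.3% in kinesins. It was 35% in myosins, 20% in tubulins and 16.7% in actin and its regulators. The heavy chain peaks were also deep inside. The median distance of the 12 intron peaks from the TSS was 72437.5 bp, against 18842 bp for the intron peaks of the whole table, and 7 of the 12 lay more than 50000 bp after the TSS, against 16.7% of all intron peaks. The lengths of these genes were not analysed here.

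The other heavy chains had a fold of 3.82 to 5.64, and they were named after their values were seen. The peaks of *DNAH3* (M.coruscus_chr1_3432) lay 184233 and 107894 bp into the gene, with 9 and 10 fragments and a fold of 4.03 and 4.43. *DNAH2* (M.coruscus_chr3_2959) had an intron peak at 80743 bp with a fold of 5.64 and an exon peak at 37818 bp with a fold of 4.74. *DNAH1* (M.coruscus_chr9_1390) had intron peaks at 20545 and 113815 bp, with a fold of 5.24 and 3.94. *DNAH7* and *DNAH10* had 1 peak each, at a fold of 4.84 and 3.82. A pair of genes named for ciliary and flagellar beta heavy chains had 1 and 2 peaks, at 3.85 to 4.84.

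**Figure D5:**
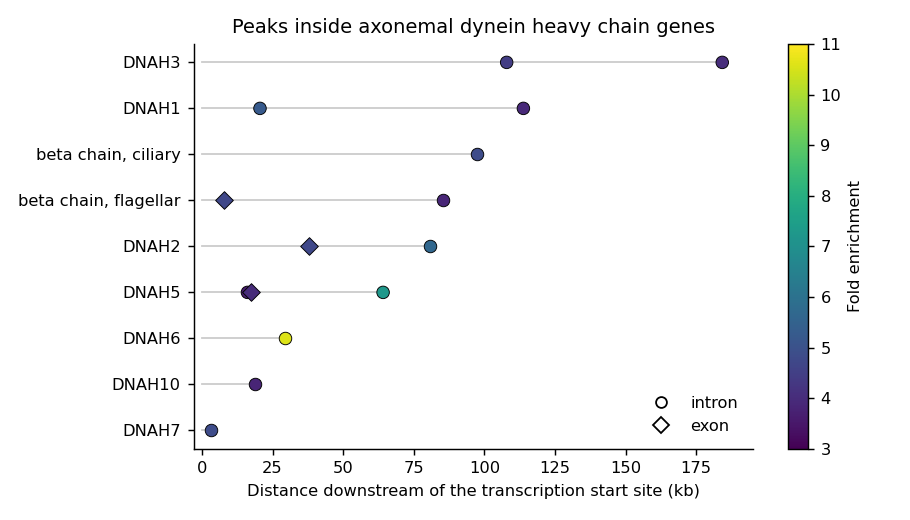
The 15 peaks inside the 9 axonemal dynein heavy chain genes by distance after the TSS (kb), 1 line per gene, with circles for introns, diamonds for exons and colour for the fold enrichment. The peaks reach 184233 bp into *DNAH3*, and the brightest point is *DNAH6* at 10.6.

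*DRC7*, a subunit of the complex that regulates dynein in the axoneme (M.coruscus_chr3_0047), had 3 peaks. An intron peak at 21685 bp had a fold of 5.29, and a pair of intergenic peaks beyond the gene, 37030 and 38419 bp after the TSS, had a fold of 4.84 and 7.66. A gene matched to a dynein heavy chain fragment (M.coruscus_chr5_2186) had an intergenic peak with 15 fragments and a fold of 6.45. KEGG named it *SETD2*, a histone methyltransferase, and its match to dynein was weak (E value 5e-07).

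Kinesins were 10 genes with 12 peaks, 7 in introns and 5 between genes. Promoters held 0 of them (Wilson interval 0 to 24.2%), against 7.24% of all peaks. That interval holds the share of all peaks. Actin and its regulators, axonemal dyneins, titins, the cilium group and the word matches also had 0 promoter peaks. The 0 therefore does not set kinesins apart. The highest kinesin peaks were at 2 genes matched to *KIF28P*, a kinesin-3 motor. One (M.coruscus_chr5_2891) had intron peaks at 69216 and 16479 bp, with a fold of 7.56 and 4.32. Another (M.coruscus_chr3_0360) had a peak 17332 bp upstream with 15 fragments and a fold of 6.45. *KIF3A*, a subunit of the kinesin-2 motor that carries intraflagellar transport into the cilium (M.coruscus_chr4_0649), had an intron peak at 46348 bp with 28 fragments and a fold of 6.36. Its gene model also holds an integrase domain. *KIFC1*, a spindle motor that moves to the minus end of microtubules (M.coruscus_chr6_0476), had an intron peak with 13 fragments and a fold of 5.64.

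The remaining kinesin matches had a fold of 3.51 to 4.84. They include *KIF9* at 4.84 and *KIF27* at 4.18, both linked to motile cilia in vertebrates, a pair of adjacent *KIF13A* genes at 4.43 and 3.67, and *PHLDB1*, a kinesin in KEGG only, at 4.84 and 4.14. The third *KIF28P* match (M.coruscus_chr3_3278) had a fold of 3.51, at 106800 bp into the gene. These were named after their values were seen.

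Alpha-tubulin, a subunit of the microtubule, was represented by 2 genes matched to *TUBA1C*. One (M.coruscus_chr2_0260) had an intron peak 4247 bp after the TSS with 41 fragments and a fold of 6.19. The other (M.coruscus_chr2_2335) had an intergenic peak 5308 bp beyond its TSS with 18 fragments and a fold of 3.0. The lowest fold of all members, 2.12, was at a gene that KEGG placed under tau tubulin kinase (M.coruscus_chr3_0123, named after its value was seen), with 37 fragments. No beta-tubulin was among the 6 genes matched by the word tubulin.

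Centrosome and centriole proteins were 9 genes with 12 peaks, 8 of them in introns. *CEP131*, a protein of the satellites around the centriole (M.coruscus_chr10_0473), had an intron peak 1003 bp long at 4326 bp, with 21 fragments and a fold of 8.87, and another at 1323 bp with 11 fragments and a fold of 3.27. *CEP192*, which gathers the material from which spindle microtubules grow (M.coruscus_chr2_0311), had a peak 5073 bp upstream with 23 fragments and a fold of 8.64. *POC5*, a centriole protein (M.coruscus_chr11_1848), had an intron peak at 1918 bp with 15 fragments and a fold of 6.45.

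*CEP63* and *DEUP1*, related proteins that start new centrioles in dividing and in multiciliated cells of vertebrates, were neighbours here. The downstream peak of *DEUP1* (M.coruscus_chr3_2293), with 9 fragments and a fold of 4.03, had its summit 672 bp from the summit of a *CEP63* promoter peak. These neighbouring peaks were annotated to different genes. *CEP290*, a protein of the ciliary gate, had a fold of 4.36, from a weak match (E value 7e-06), and *CEP162* had one of 3.60 at 155 bp after the TSS. A gene that is *ETS1* in Swiss-Prot and *CEP164* in KEGG had a fold of 3.51. These 3 genes and *DEUP1* were named after their values were seen.

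Proteins of the cilium were 6 genes with 6 peaks, 5 in introns and 1 between genes. *CFAP46*, a protein of the central pair of the axoneme (M.coruscus_chr8_0380), had an intron peak at 22439 bp with 15 fragments and a fold of 6.45. *CFAP20* (M.coruscus_chr5_2812), an inner junction protein of the ciliary doublet, had an intergenic peak 3474 bp beyond its TSS with a fold of 5.22. *CFAP74* (M.coruscus_chr13_0868) and *CFAP221* (M.coruscus_chr2_2449), both of the central pair, had intron peaks with a fold of 5.14 and 4.32. *IFT88*, a core subunit of the trains of intraflagellar transport (M.coruscus_chr9_1528, named after its value was seen), had a fold of 3.67. A gene matched to IFT88 by KEGG only had a fold of 2.68.

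Among the genes matched by word only, *SMARCAL1*, a helicase that repairs stalled replication forks (M.coruscus_chr2_2316), had the second highest fold of all members. Its peak was 1107 bp long and lay 10975 bp upstream of the TSS, with 50 fragments and a fold of 9.36. *LRRC74A* (M.coruscus_chr4_0907), a leucine-rich repeat protein placed under tubulin alpha by KEGG, had an intron peak with 20 fragments and a fold of 8.47. A gene matched to *PEG3* (M.coruscus_chr7_2741) and one matched to a titin homolog (M.coruscus_chr10_2279) had exon peaks with a fold of 6.05 and 5.40. The other 5 word matches had a fold of 3.96 to 5.26. The highest peak of these 9 genes, like the next, lay near a gene that is not cytoskeletal by its domains.

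Member genes were nearest to several peaks about as often as others. At least 3 peaks were nearest to 5 of 73 member genes (6.85%), against 7.61% of all genes with a peak. These 5 were actin with 17 peaks, the titin and hemicentin match and the myosin-binding protein C match with 5 each, and *DNAH5* and *DRC7* with 3 each. Peaks of the same gene lay within 2000 bp of each other in 18 of 41 gaps (43.9%), against 41.2% of 917 gaps in all genes. Without the actin gene the count was 6 of 25 (24%).

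Members lay on all 14 chromosomes. They made up 1.21% of the peaks on chromosome 1, the lowest share, and 8.26% on chromosome 6, the highest, where 17 of 19 were those of actin. Chromosome 3 held the most member peaks, 21 at 12 genes. Within 5000 bp of a TSS lay 24 member peaks (21.1%), against 20.9% of all peaks.

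Other cytoskeletal words were searched in the same texts. Of 35 words, 16 matched 0 further peaks, among them cofilin, gelsolin, vinculin, radial spoke and Arp2/3. The others matched 125 peaks at 93 genes, 5 of them in promoters, with a median fold of 4.43. Ankyrin, a repeat found in many kinds of protein, gave 80 of these peaks, and the word formin also matched names with "-forming" at 10 peaks. Without ankyrin, 45 peaks at 34 genes had a median fold of 4.43, close to the 4.48 of the members. These 45 still include the 10 peaks with "-forming", which had a median fold of 3.73.

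The next 3 genes were named after their values were seen, and the first 2 had peaks above any member. Talin-1, which ties integrins to actin (M.coruscus_chr11_2002), had an intron peak with 32 fragments and a fold of 13.3. *SPICE1*, a spindle and centriole protein (M.coruscus_chr1_3693), had an intron peak with 32 fragments and a fold of 11.9. Centrin-3, a calcium-binding protein of the centriole (M.coruscus_chr11_1710), had an intron peak with 39 fragments and a fold of 8.77.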

How the data were processed

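Chromatin of the digestive gland of *M. coruscus* was sequenced as 1 Nrf2 ChIP library and 1 input library. According to the submitters' processing notes and methods, reads went through Trimmomatic 0.36 and FastQC, were placed on an unpublished genome by Bowtie2 2.5.1, and gave peaks by MACS3 3.0.0a7 with the input as control, which HOMER annotated. The q threshold and the handling of duplicates were not given in the sources used here. Deposited values of −log10 q began at 1.32.

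The table deposited by the authors gives the signal as the pileup of fragments at each summit, the fold enrichment as a ratio to the local background, q as a −log10 value, and positions in bp of the authors' genome. Gene names are the authors' matches to other species. The reference gene table at hand has other identifiers and was not used.

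Member peaks were found by the words given above, and roles were assigned by hand from names and domains. The members and lists were chosen with earlier results of these data known. Named were genes with a promoter peak, genes with 3 or more peaks and the 4 genes with the highest fold in each role. Names are those of Swiss-Prot, or of KEGG where Swiss-Prot had none. Some Swiss-Prot names were kept though the word stood in KEGG only, such as *EHBP1*, *ANK2*, *BTBD17*, *CCDC17*, *PHLDB1*, *ETS1* and *LRRC74A*. Background was (pileup + 1) / fold, and counted as lowest within 0.01 of 2.48. Wilson 95% intervals were computed for shares, and order statistics gave that of the median. Peaks are not replicates, so no test was made. Peaks of the same gene are not independent, which may make these intervals too narrow. PCR copies may do the same to the Poisson intervals of the pileups. Counting was tested on simulated data. Tables were handled in pandas 2.3.3 under Python 3.11.15, numbers with SciPy 1.17.1 and NumPy 2.4.6, and plots with Matplotlib 3.10.9.

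Alternatives were limits on fold, q, E value and background, 1 peak per gene, merged peaks, the promoter(1k) class alone and other ways of matching names. Leaving out the actin gene and keeping only genes whose names were not contradicted were chosen after seeing the data.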

Additional observations from a re-analysis of the deposited data

How the results depend on the processing

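Over 14 settings, 63 of 74 recomputed values stayed within their interval or within 1.5 times the count, and 11 moved. With a fold of at least 4, 74 peaks were left with a median fold of 5.24. With 1 peak per gene, 73 peaks were left, with 31.5% intergenic and a median fold of 5.14. Leaving out the actin gene gave 30.9% intergenic. Keeping genes whose cytoskeletal name was not contradicted left 74 peaks at 44 genes, of which 3 had 3 or more peaks. The promoter(1k) class alone held 0.877% of member peaks. Its share of all peaks was not computed, and the 7.24% of all peaks covers promoters up to 3 kb. Merging peaks within 1000 bp also left 3 genes with 3 or more peaks. The fold limit and the choice of 1 peak per gene, which kept the highest fold, select on fold by construction. The other shifts come from leaving out peaks, genes or classes. No paired analysis was possible because there was 1 ChIP and 1 input library with no replicate numbers, and no replicate could be left out. Pileups of 9 to 88 fragments limit every single fold.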
